A study of Mus musculus with 6 samples.

Results

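The genes described here are the ligands and receptors of axon guidance, the ephrins with their Eph receptors, and the teneurins, in HCT116, a human cell line long established from a colorectal carcinoma. Members were chosen by gene symbol, as the semaphorins (SEMA3 to SEMA7), plexins, neuropilins, Eph receptors, ephrins, Robo receptors, Slits, netrins (NTN1 to NTN5), UNC5 receptors and teneurins. These were 64 of the 31456 rows of the count table, and 55 of them had a total of at least 30 reads over all libraries and were compared. EPHA3, EPHA5, EPHA6, EPHA7, ROBO2, UNC5C, TENM1 and TENM4 were not analysed here, so places and shares within a family refer to the members analysed. Bulk RNA sequencing had been carried out on the parental form of the line and on an oxaliplatin-resistant form, with 3 libraries each and no other difference given between the groups. Oxaliplatin is a platinum drug used against colorectal cancer. The study set out to find genes that confer resistance to it. The labels did not give the derivation of the resistant form, nor whether it is a clone, whether drug was present at harvest, or whether replicates were separate cultures. The p-values therefore measure the spread between these libraries, which may be technical.

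Guidance molecules were named for steering growing axons, and epithelia and their tumours use the same proteins to set cell position, adhesion and movement. Class 3 semaphorins are secreted and bind neuropilins, which hand the signal to plexins, whereas most other semaphorins are membrane-bound or anchored and bind plexins directly. Ephrins and Eph receptors both sit in the membrane and signal in both directions where cells touch, and in the intestine EphB receptors and their ephrin-B ligands keep crypt and villus cells apart. Slits signal through Robo receptors, netrins through DCC, neogenin and the UNC5 receptors, and teneurins bind latrophilins across cell contacts. In bulk RNA a difference in the level per cell and a difference in the share of cells that express a gene cannot be told apart.

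The totals of the 6 libraries lay between 20246878 and 32138423 counts. A count of 3, taken as the floor of detection, corresponded to 0.0978 to 0.153 CPM (read counts scaled to library size, here with TMM normalisation factors). Floors and counting intervals cover counting error only. Parental replicate 2 stood apart from the other libraries of its group, with a chi-square per gene of 11.3 and 11.0 against them. That statistic is near 1 for sampling noise alone, and it was 2.01 to 4.51 for the other pairs of replicates. The epithelial markers EPCAM, KRT8, KRT18, KRT19 and CDH1 were present in both forms, whereas VIL1, CDH17 and LGALS4 had 10, 5 and 20 counts in all. EPCAM, KRT8 and KRT18 were lower in the resistant cells (log2 fold changes of -0.29 to -0.18), and KRT19 and CDH1 were higher (0.18 and 0.22). KRT20 was also higher at a low level (0.749 against 0.340 CPM), and CDX2 did not pass (10.3 against 11.0 CPM). Leukocyte markers summed to at most 0.481 CPM and endothelial markers to at most 1.54 CPM in a library. Of 7 measured neuronal markers SYT1 was lower (25.7 against 55.3 CPM) and SNAP25 higher (2.61 against 0.524 CPM) in the resistant cells, and SYP did not pass (1.67 against 2.29 CPM). The neuronal markers ELAVL3, STMN2, RBFOX3 and GAP43 had at most 11 counts each over all libraries. Of 6 fibroblast markers COL1A1 (41.6 against 24.4 CPM) and PDGFRB (0.567 against 0.162 CPM) were higher in the resistant cells. COL3A1 had 2 counts in the parental and 25 in the resistant libraries together and was not tested, and COL1A2, DCN and LUM had at most 3 counts each.

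Guidance genes were more often higher than lower in the resistant cells. Of the 55 members compared, 27 rose, 11 fell and 17 missed the threshold (quasi-likelihood test of edgeR, Benjamini-Hochberg adjusted p under 0.05). Over all 18094 tested genes 49.8% passed that threshold, 25.0% as higher and 24.8% as lower, against 69.1% of the members in either direction. A difference of at least 2-fold in addition was found for 10 members that rose (all tested genes 5.83%) and for 2 that fell (all tested genes 2.67%). The ligand EFNA5 and the receptors EPHA4, NRP1, NRP2 and ROBO1 rose most, with SLIT2, NTN4, SEMA3A, SEMA3C and EFNB3. TENM3 and PLXNA2 were the 2 that fell at least 2-fold. The median log2 fold change was 0.16 over the members and 0.02 over all tested genes, and its median size without sign was 0.40 and 0.28. For 44 of the members (80.0%) the CPM of the groups did not overlap, which held for 58.1% of all tested genes. By family, 58.8% of the tested semaphorins, 55.6% of the Eph receptors and 75% each of the plexins and ephrins passed the adjusted p threshold, against the 49.8% of all tested genes. The other families had at most 3 tested genes each.

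**Figure D1:**
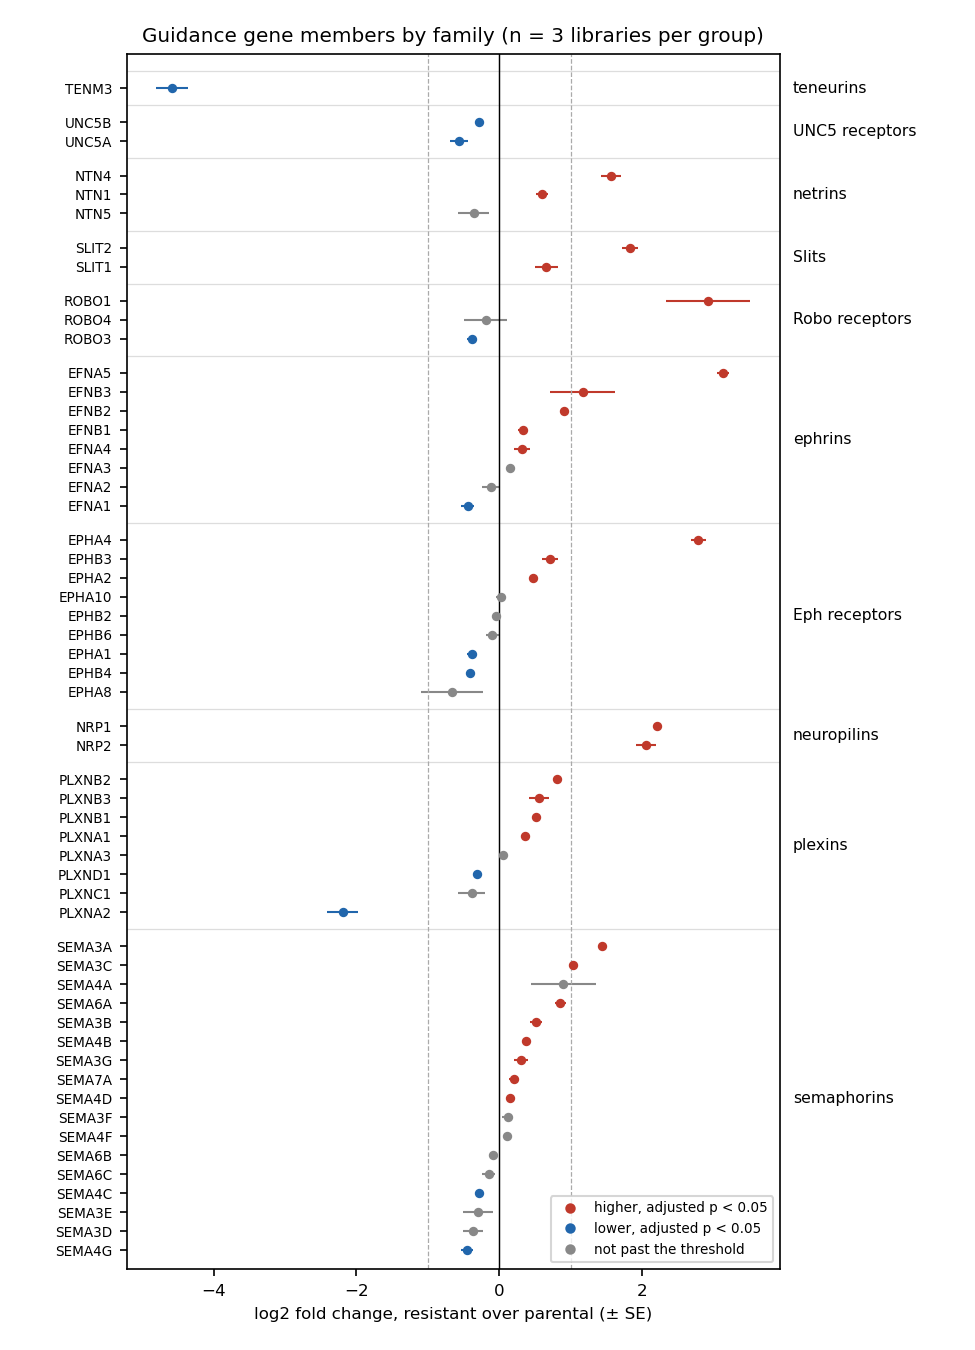
Log2 fold change of each of the 55 members (resistant over parental libraries, 3 each), grouped by family. Points are fitted values, bars their SE, colour the call at an adjusted p of 0.05, and dashed lines mark a 2-fold difference. TENM3 at -4.58 and EFNA5 at 3.14 are the ends of the range.

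These counts depended on how the libraries were scaled and on single libraries. Without parental replicate 2, 27 members were higher and 12 lower, 9 and 2 of them by at least 2-fold. Of all genes past the threshold 50.2% were higher with TMM factors, 65.7% with library sizes alone and 60.0% on the deposited FPKM (a scale that also divides by gene length), and the members' split was 31 higher to 11 lower and 21 or 22 higher to 5 lower under those. With any single library left out 33 of the 38 calls were kept, and those of EFNA4, EFNB3, SEMA3G, SEMA4D and SEMA7A were lost at least once. On FPKM the calls of EFNB3, EPHA1, EPHB3, PLXNB3, PLXND1, ROBO1, SEMA3G, SEMA4C, SEMA4D, SEMA4G, UNC5A and UNC5B were lost, with PLXND1 on the other side of 0.

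**Figure D2:**
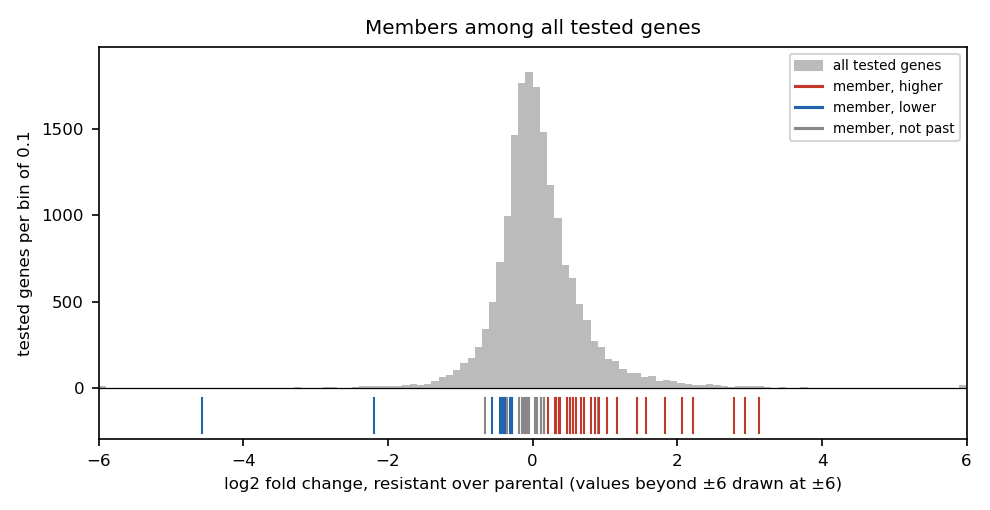
Distribution of the log2 fold change over all 18094 tested genes (grey bars, genes per bin) with the 55 members as ticks below, coloured by call. Most members sit in the body of the distribution, and those past 2-fold lie mainly on the right-hand side.

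Among the semaphorins 8 of 17 tested genes rose, 2 fell and 7 did not pass. The secreted class 3 held the largest rises. SEMA3A, which collapses growth cones through NRP1 and A-type plexins, had 24.9, 22.6 and 24.1 CPM in parental replicates 1, 2 and 3. In resistant replicates 1, 2 and 3 SEMA3A had 65.5, 65.4 and 63.4 CPM. In CPM the resistant libraries lay well above the parental ones with little spread, a rise of 2.72-fold (log2 fold change 1.44 ± 0.06 SE, edgeR adjusted p = 1.1e-09). On FPKM the parental libraries spread more, with 7.31 ± 2.13 in the parental and 14.8 ± 0.462 in the resistant cells (SD, n = 3). SEMA3C, a secreted semaphorin that can use both neuropilins, had 44.4, 47.7 and 44.9 CPM in the parental libraries and 93.4, 89.1 and 98.0 CPM in the resistant libraries. The groups did not overlap, and the rise was 2.05-fold (log2 fold change 1.03 ± 0.05 SE, edgeR adjusted p = 1.4e-08). SEMA3C stood just inside the 2-fold line, which it missed with a log2 fold change of 0.998 at the lowest when a library was left out, and EFNB2 at 0.91 and SEMA6A at 0.86 were the called members just outside it.

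The other class 3 genes differed less. SEMA3B rose 1.43-fold (13.2 ± 1.37 against 19.0 ± 1.15 CPM, SD, n = 3, edgeR adjusted p = 2.4e-04). SEMA3G had a log2 fold change of 0.31 ± 0.10 (SE, edgeR adjusted p = 0.021), a call lost when parental replicate 3 or resistant replicate 1 or 3 was left out. SEMA3D, SEMA3E and SEMA3F did not pass, with log2 fold changes of -0.36, -0.30 and 0.12. Class 3 as a whole was therefore not uniform. SEMA3D and SEMA3E had 3.12 and 2.01 CPM in the parental cells, above the floor of detection.

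Of the membrane-bound semaphorins SEMA6A, a ligand of A-type plexins, rose most among those past the threshold. It had 8.77, 10.4 and 9.79 CPM in the parental group and 17.3, 18.2 and 17.0 CPM in the resistant group, a rise of 1.81-fold without overlap (log2 fold change 0.86 ± 0.08 SE, edgeR adjusted p = 2.6e-06). SEMA4B rose 1.30-fold, and SEMA7A, the lipid-anchored member, and SEMA4D, the ligand of B-type plexins, had log2 fold changes of 0.21 and 0.16. The SEMA7A and SEMA4D adjusted p-values of 0.022 and 0.035 rose to at most 0.12 and 0.14 with a library left out. SEMA4C and SEMA4G fell 1.22-fold and 1.36-fold. SEMA6B had the highest FPKM of the family in both forms, 33.8 ± 1.73 in the parental and 31.9 ± 1.05 in the resistant cells (SD, n = 3). Its log2 fold change of -0.08 ± 0.05 (SE) did not pass (edgeR adjusted p = 0.17), and it was 0.02 with library sizes alone. In the resistant cells SEMA3C came next at 28.3 FPKM, and the libraries of SEMA6B and SEMA3C overlapped there. Together the family's FPKM summed to 142 to 155 in the parental and 180 to 186 in the resistant libraries. SEMA4A had 3 to 10 counts a library and did not pass, and SEMA5A, SEMA5B and SEMA6D had at most 13 counts in all and were not tested.

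Both neuropilins, the co-receptors that bind class 3 semaphorins and also VEGF, rose over 4-fold in the counts. NRP1 had 10.2, 10.04 and 9.89 CPM in parental replicates 1, 2 and 3. It had 46.4, 47.0 and 46.7 CPM in the resistant replicates. The libraries within each form were nearly level, and the rise was 4.65-fold (log2 fold change 2.22 ± 0.06 SE, edgeR adjusted p = 3.8e-11). NRP2 had 1.35, 1.27 and 1.53 CPM in the parental group and 5.62, 5.66 and 5.96 CPM in the resistant group. All 3 resistant libraries lay above all parental ones, a rise of 4.17-fold (log2 fold change 2.06 ± 0.14 SE, edgeR adjusted p = 1.5e-07). Per length NRP1 remained the more abundant of the pair, at 3.15 ± 1.27 FPKM against 0.417 ± 0.204 in the parental and 11.9 ± 1.03 against 2.04 ± 0.412 in the resistant cells (SD, n = 3).

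**Figure D3:**
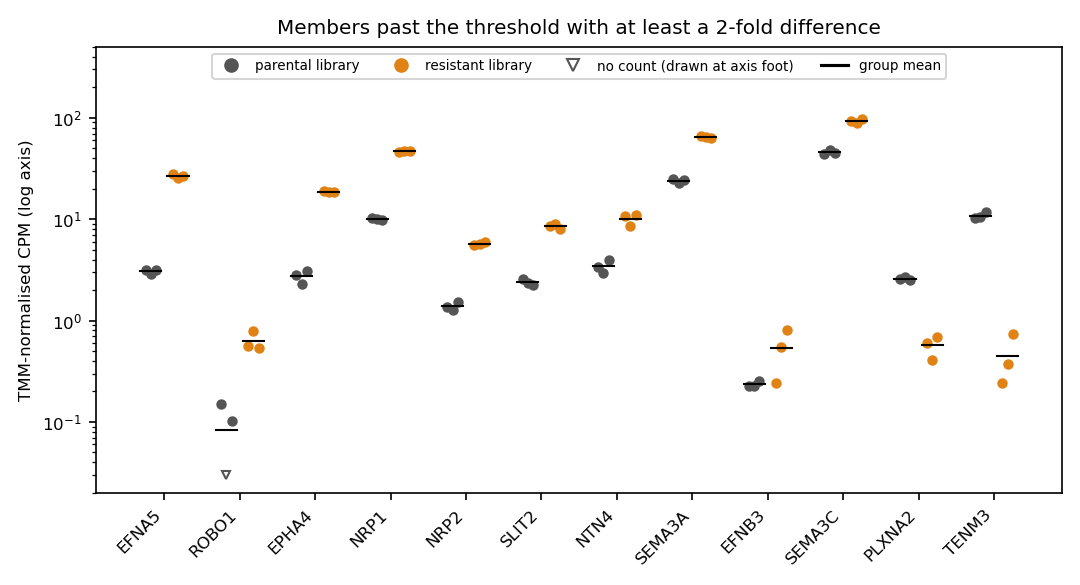
CPM in each library (log axis) of the 12 called members that differed at least 2-fold, ordered by fold change. Points are libraries, bars group means, and the open triangle marks the parental library without a ROBO1 count. EFNB3 is the gene whose groups overlap.

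Plexins, the signalling receptors for semaphorins, went both ways, with 4 of 8 tested genes higher, 2 lower and 2 not past the threshold. All 3 B-type plexins rose. PLXNB2, a receptor for class 4 semaphorins and the most abundant plexin, had 281, 325 and 271 CPM in the parental group and 508, 532 and 500 CPM in the resistant group. Every resistant library was higher than every parental library, with parental replicate 2 the highest of its group, and the rise was 1.76-fold (log2 fold change 0.81 ± 0.06 SE, edgeR adjusted p = 9.2e-07). PLXNB2 held 44.4% to 45.9% of the FPKM summed over the plexins of the parental group and 57.2% to 58.5% of the resistant group. PLXNB1 and PLXNB3 rose 1.43-fold and 1.47-fold.

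The A-type plexins, which pair with neuropilins, split. PLXNA2 had 2.56, 2.70 and 2.50 CPM in the parental libraries, from 68, 83 and 49 counts. In the resistant libraries PLXNA2 had 0.602, 0.409 and 0.693 CPM, from 15, 12 and 18 counts. The groups were far apart at this low level, a fall of 4.57-fold (log2 fold change -2.19 ± 0.22 SE, edgeR adjusted p = 4.9e-06). PLXNA1 instead rose 1.29-fold (log2 fold change 0.36 ± 0.06 SE), and PLXNA3 had a log2 fold change of 0.06 ± 0.05 (SE, edgeR adjusted p = 0.39) in the counts and -0.18 on FPKM. PLXND1, a receptor for class 3 semaphorins, fell 1.24-fold in the counts (54.7 ± 3.37 against 44.1 ± 1.81 CPM, SD, n = 3, edgeR adjusted p = 9.0e-04), whereas its FPKM were 17.0 ± 3.04 and 18.1 ± 1.76 and did not differ past the threshold. PLXNC1, the receptor of SEMA7A, did not pass at 1.81 and 1.37 CPM, and PLXNA4 had 17 counts in all.

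Of the Eph receptors, the largest family of receptor tyrosine kinases, 3 of 9 tested rose, 2 fell and 4 did not pass. EPHA4, which binds ephrins of both classes, had 2.82, 2.28 and 3.11 CPM in parental replicates 1, 2 and 3. In the resistant replicates EPHA4 had 19.2, 18.4 and 18.4 CPM. It was high in every resistant library and low in every parental one, a rise of 6.91-fold (log2 fold change 2.79 ± 0.10 SE, edgeR adjusted p = 8.0e-10). By FPKM EPHA4 moved from place 8 to place 5 among the 10 Eph receptors analysed, at 1.15 ± 0.281 and 5.75 ± 1.14 (SD, n = 3). Its resistant libraries overlapped with those of EPHA1, the next gene above it.

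EPHA2, a receptor of ephrin-A ligands that is common in carcinomas, was the most abundant of the Eph receptors analysed throughout. It had 198, 222 and 199 CPM in the parental group and 290, 292 and 276 CPM in the resistant group. The groups did not overlap, and the rise was 1.39-fold (log2 fold change 0.47 ± 0.05 SE, edgeR adjusted p = 1.4e-05). EPHA2 took 50.2% to 52.8% of the family's summed FPKM in the parental group and 60.8% to 63.8% in the resistant group. EPHB4, the receptor of EFNB2 and second in FPKM, fell 1.32-fold (94.0 ± 2.61 against 71.1 ± 1.80 CPM, SD, n = 3, edgeR adjusted p = 1.8e-05). EPHA1 fell 1.30-fold.

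The crypt receptors EPHB2 and EPHB3, known as Wnt targets in the intestine, had different calls in the counts. EPHB3 rose 1.64-fold (5.71 ± 0.894 against 9.44 ± 0.198 CPM, SD, n = 3, edgeR adjusted p = 2.4e-04). On FPKM the EPHB3 groups overlapped (1.97 ± 0.829 against 3.03 ± 0.656, SD, n = 3) and it did not pass. EPHB2 had 39.3, 41.0 and 38.4 CPM in the parental group and 36.6, 39.4 and 38.8 CPM in the resistant group. Its groups overlapped, and it did not pass (edgeR adjusted p = 0.50) at a log2 fold change of -0.05 ± 0.06 (SE), which was 0.05 with library sizes alone and 0.02 on FPKM. The difference between the EPHB2 and EPHB3 changes was not itself tested. EPHA10 and EPHB6 had log2 fold changes of 0.03 and -0.10, and EPHB6 had 0.0029 with library sizes alone. EPHA8 had 3 to 11 counts a library, and EPHB1 7 in all.

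Ephrins, the ligands of these receptors, had 5 of 8 tested genes higher, 1 lower and 2 not past the threshold. EFNA5, a lipid-anchored ligand that binds EPHA4 among others, had 3.16, 2.87 and 3.16 CPM in the parental libraries. In the resistant libraries EFNA5 had 28.2, 25.7 and 26.7 CPM. All resistant libraries were far above all parental ones, and the rise of 8.79-fold was the largest fitted among the members (log2 fold change 3.14 ± 0.08 SE, edgeR adjusted p = 4.0e-11). On FPKM the EFNA5 means were 0.740 ± 0.300 and 5.45 ± 0.718 (SD, n = 3), place 7 and then place 6 of 8 in the family, where its resistant libraries overlapped with those of EFNA2, the next gene below it. EFNB2, the transmembrane ligand of EPHB4 and EPHA4, had 37.6, 35.0 and 39.3 CPM in the parental group and 71.8, 68.1 and 70.3 CPM in the resistant group. The rise was 1.88-fold without overlap (log2 fold change 0.91 ± 0.06 SE, edgeR adjusted p = 6.3e-08).

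By length-scaled level the ephrins were ordered differently in the 2 forms. EFNA3 led in the parental cells at 13.4 ± 1.18 FPKM, ahead of EFNA1 at 9.93, and EFNB2 led in the resistant cells at 16.9 ± 0.695 FPKM, ahead of EFNA3 at 14.9 ± 0.510 (SD, n = 3). The libraries of the first and second genes did not overlap in either form. EFNB1, a ligand of the EphB receptors, rose 1.26-fold (edgeR adjusted p = 6.6e-04). EFNA4 rose 1.25-fold, a call lost when parental replicate 1 or 3 or resistant replicate 1 or 3 was left out. EFNA1, a ligand of EPHA2, was the ephrin that fell, from 11.7 ± 1.01 to 8.60 ± 0.223 CPM (SD, n = 3), or 1.36-fold (log2 fold change -0.44 ± 0.09 SE, edgeR adjusted p = 0.0012).

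EFNB3 passed only just and rested on few reads. It had 6, 7 and 5 counts in the parental libraries and 6, 16 and 21 in the resistant libraries, so that resistant replicate 1 lay within the parental range. The fitted difference was 2.25-fold (log2 fold change 1.17 ± 0.46 SE, edgeR adjusted p = 0.0495). Leaving out any one library other than resistant replicate 1 gave an adjusted p of 0.079 to 0.23, the highest without resistant replicate 3, and DESeq2 gave 0.16. EFNA3 and EFNA2 did not pass, at log2 fold changes of 0.16 and -0.12, and EFNA2 had 0.01 without parental replicate 3, its highest parental library.

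**Figure D4:**
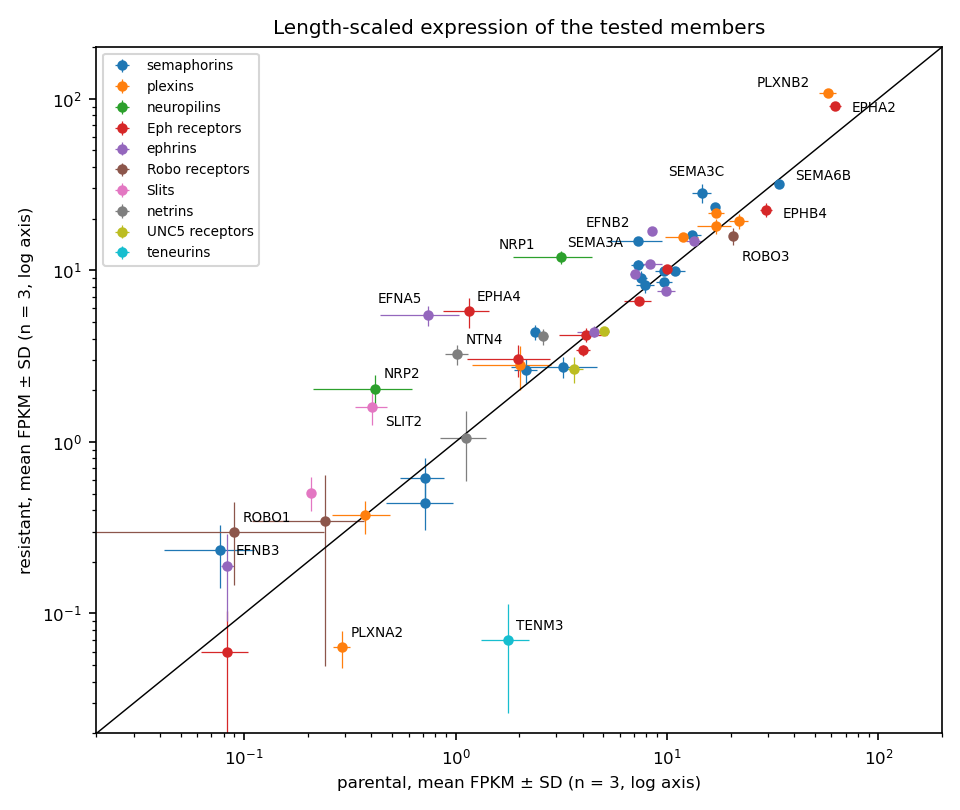
Mean deposited FPKM of the 55 tested members in the parental (horizontal) and resistant cells (vertical), both on log axes, coloured by family, with SD over 3 libraries and the line of equal level. PLXNB2 and EPHA2 are the most abundant members in both forms, and TENM3 and PLXNA2 lie far below the line. Bars that reach 0 run off the axes.

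Slits, the secreted ligands of Robo receptors, were low in the parental cells. SLIT2 had 2.56, 2.35 and 2.24 CPM in the parental group and 8.66, 8.89 and 7.96 CPM in the resistant group. The 3.56-fold rise left no overlap (log2 fold change 1.83 ± 0.12 SE, edgeR adjusted p = 8.3e-08). SLIT1 rose 1.58-fold, from 1.64 ± 0.0349 to 2.60 ± 0.255 CPM (SD, n = 3, edgeR adjusted p = 0.0046). Per length both stayed low, with SLIT2 at 1.59 ± 0.330 FPKM in the resistant cells, and SLIT3 had 6 counts in all.

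The Robo receptors differed among themselves. ROBO1, the main receptor of SLIT2, had 4, 0 and 2 counts in parental replicates 1, 2 and 3 and 14, 23 and 14 counts in the resistant replicates. Parental replicates 2 and 3 were under the floor of 3 counts and every resistant library was above it. The ratio of summed counts, scaled to library size, was 8.14 with an exact 95% counting interval of 3.49 to 23.2 (edgeR adjusted p = 0.0013). The fitted log2 fold change of 2.93 became 3.81 without parental replicate 1 and 2.25 without parental replicate 2. The FPKM of ROBO1 overlapped between the groups and did not pass in limma (adjusted p = 0.11 and 0.14 with pseudocounts of 0.1 and 1). ROBO3, a divergent member of the family, was by far the most abundant per length of the Robo genes analysed. It held 93.3% to 99.1% of their summed FPKM in every library. It had 19.98, 20.8 and 20.2 CPM in the parental group and 16.2, 15.6 and 14.9 CPM in the resistant group, a fall of 1.31-fold without overlap (log2 fold change -0.39 ± 0.06 SE, edgeR adjusted p = 2.8e-04). ROBO4, the endothelial member, had 13 to 21 counts a library and did not pass (log2 fold change -0.19 ± 0.30 SE).

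Of the netrins NTN1 and NTN4 rose and NTN5 did not pass. NTN4, a laminin-like netrin found in basement membranes, had 3.39, 2.97 and 3.93 CPM in the parental group and 10.7, 8.48 and 11.0 CPM in the resistant group. The resistant libraries were all higher, with replicate 2 the lowest, and the rise was 2.96-fold (log2 fold change 1.56 ± 0.14 SE, edgeR adjusted p = 1.6e-06). NTN1, the classical attractant and repellent, rose 1.51-fold (15.0 ± 0.750 against 22.5 ± 2.46 CPM, SD, n = 3, edgeR adjusted p = 8.1e-05) and had the highest FPKM of the family in both forms, 2.59 and 4.12. NTN5 had a log2 fold change of -0.36 ± 0.22 (SE), and NTN3 had 8 counts in all.

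Both tested UNC5 receptors, which mediate repulsion by netrins and are known as dependence receptors, fell in the counts. UNC5A had 11.2, 14.2 and 12.95 CPM in the parental group and 9.47, 9.40 and 7.08 CPM in the resistant group, a fall of 1.48-fold without overlap (log2 fold change -0.56 ± 0.12 SE, edgeR adjusted p = 0.0028). UNC5B fell 1.22-fold, from 33.4 ± 1.75 to 27.5 ± 0.694 CPM (SD, n = 3, edgeR adjusted p = 0.0017). On FPKM both kept the direction and missed the threshold, with limma adjusted p-values of 0.052 and 0.055 for UNC5A and 0.13 and 0.14 for UNC5B. UNC5D had 1 count in the parental and 14 in the resistant libraries together and was not tested.

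TENM3, a large transmembrane protein that organises cell contacts and synaptic wiring, showed the largest difference of the members. It had 10.2, 10.6 and 11.7 CPM in parental replicates 1, 2 and 3, from 272, 326 and 229 counts. In resistant replicates 1, 2 and 3 it had 0.241, 0.375 and 0.731 CPM, from 6, 11 and 19 counts. Every resistant library was thus above the floor of 3 counts and far below the parental libraries. The fall was 23.9-fold (log2 fold change -4.58 ± 0.22 SE, edgeR adjusted p = 1.4e-08), and the ratio of summed counts gave a 24.0-fold lower level with an exact 95% counting interval of 17.2 to 34.5. The log2 fold change ran from -5.09 to -4.30 as each library was left out. TENM1 and TENM4 were not analysed here, and TENM2 had 3 counts in all, so TENM3 was the teneurin that could be compared. Of its latrophilin receptors ADGRL1 had 146 ± 1.36 CPM in the parental group and 142 ± 6.67 CPM in the resistant group (SD, n = 3) and did not pass (edgeR adjusted p = 0.41), and ADGRL2 and ADGRL3 had 5 counts and 1 count in all.

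The members that differed at least 2-fold were mostly not the abundant ones. Their median FPKM over all libraries was 1.68, against 9.36 for the 26 called members with a smaller difference and 3.71 for the 17 that did not pass. Of 17 tested members with at least 10 FPKM, SEMA3A and SEMA3C were the 2 with a 2-fold difference in the counts. The parental and resistant FPKM means were 7.31 and 14.8 for SEMA3A and 14.6 and 28.3 for SEMA3C, the latter under 2-fold. The medians describe members grouped by their fold change, carry no test and were not compared with all tested genes. Seen by side, 17 of 30 tested ligands rose and 3 fell, and 10 of 24 tested receptors rose and 7 fell. With TENM3 that makes the 55. Past the threshold were 66.7% of the ligands and 70.8% of the receptors, against 49.8% of all tested genes (25.0% higher and 24.8% lower). The median log2 fold change was 0.32 for the ligands, -0.0088 for the receptors and 0.02 over all tested genes. The difference between the sides was not tested.

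Ligands and receptors known to bind each other moved together in some pairs and apart in others. The pairs named here are examples chosen after their values were seen. SEMA3A and NRP1 rose, as did EFNA5 and EPHA4, EFNB2 and EPHA4, SLIT2 and ROBO1, and SEMA4D and PLXNB1, the last pair with the SEMA4D call noted above. The ROBO1 rise rested on few counts and did not pass on FPKM, and ROBO3, the most abundant Robo gene analysed, fell. NTN1 rose and so did its receptor neogenin, NEO1, by 1.30-fold (edgeR adjusted p = 1.1e-04). EFNA1 fell while its receptor EPHA2 rose, EFNB2 rose while EPHB4 fell, and NTN1 rose while UNC5A and UNC5B fell in the counts. SEMA6A rose while its receptor PLXNA2 fell. These are levels of mRNA within the same libraries. Protein, surface location and receptor phosphorylation were not measured.

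Partners of these genes, taken from a list of 75 co-receptors, adaptors and effectors, went both ways. Of all tested genes 25.0% rose and 24.8% fell, 5.83% and 2.67% by at least 2-fold. Of 64 tested partners 22 rose, 17 fell and 25 did not pass, with 6 rises and 2 falls of at least 2-fold. That is 60.9% of the partners past the threshold, against 49.8% of all tested genes. With library sizes alone 34 partners rose and 9 fell, and on FPKM 23 rose and 6 fell. Their median log2 fold change was 0.07. By role the share past the threshold was 85.7% for the netrin and UNC5 partners and 72.2% for semaphorin and plexin signalling. It was 54.5% for Eph and ephrin signalling and 44.4% for Slit and Robo signalling. DCC, the classical netrin receptor, was not analysed here, nor were DSCAM and FLRT2.

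The netrin and UNC5 partners had 5 of 7 tested genes higher and 1 lower. RGMB, a neogenin ligand and BMP co-receptor, rose 1.87-fold (21.7 ± 1.34 against 40.5 ± 0.867 CPM, SD, n = 3, edgeR adjusted p = 1.4e-07). NTNG2, a membrane-anchored netrin relative, rose 3.99-fold (1.10 ± 0.165 against 4.45 ± 0.136 CPM, edgeR adjusted p = 6.2e-07). FLRT3, a ligand of UNC5B and of latrophilins, was singled out after its values were seen. It had 1, 0 and 3 counts in the parental and 28, 31 and 32 in the resistant libraries, a ratio of 21.8 with an exact 95% counting interval of 8.22 to 81.7.

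Of 18 tested genes of semaphorin and plexin signalling 8 rose and 5 fell. L1CAM, an adhesion molecule that associates with NRP1, fell 2.26-fold (34.7 ± 1.31 against 15.4 ± 0.775 CPM, SD, n = 3, edgeR adjusted p = 1.7e-08). RND3, which lowers actomyosin contractility, rose 2.20-fold (14.0 ± 0.537 against 30.7 ± 1.06 CPM, edgeR adjusted p = 2.0e-08). The 4 tested VEGF ligands and receptors that share the neuropilins, VEGFA, VEGFB, PGF and KDR, had edgeR adjusted p-values of 0.28 (PGF) to 0.74 (VEGFB), and VEGFA had 72.9 ± 1.92 and 74.8 ± 2.86 CPM (SD, n = 3).

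In Eph and ephrin signalling 4 of 11 tested genes rose and 2 fell, or 54.5% past the threshold against 49.8% of all tested genes. TIAM1, an exchange factor that activates RAC1, rose 2.12-fold (58.2 ± 1.99 against 124 ± 3.20 CPM, SD, n = 3, edgeR adjusted p = 3.1e-09), and FYN, a Src family kinase, rose 2.37-fold (13.9 ± 0.948 against 32.8 ± 0.661 CPM, edgeR adjusted p = 1.2e-08). Among 9 Slit and Robo partners 3 rose and 1 fell, a share of 44.4% that is below that of all tested genes. SRGAP1, a GTPase-activating protein that binds Robo receptors, rose 1.38-fold, and ARHGAP39 fell 1.24-fold.

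**Figure D5:**
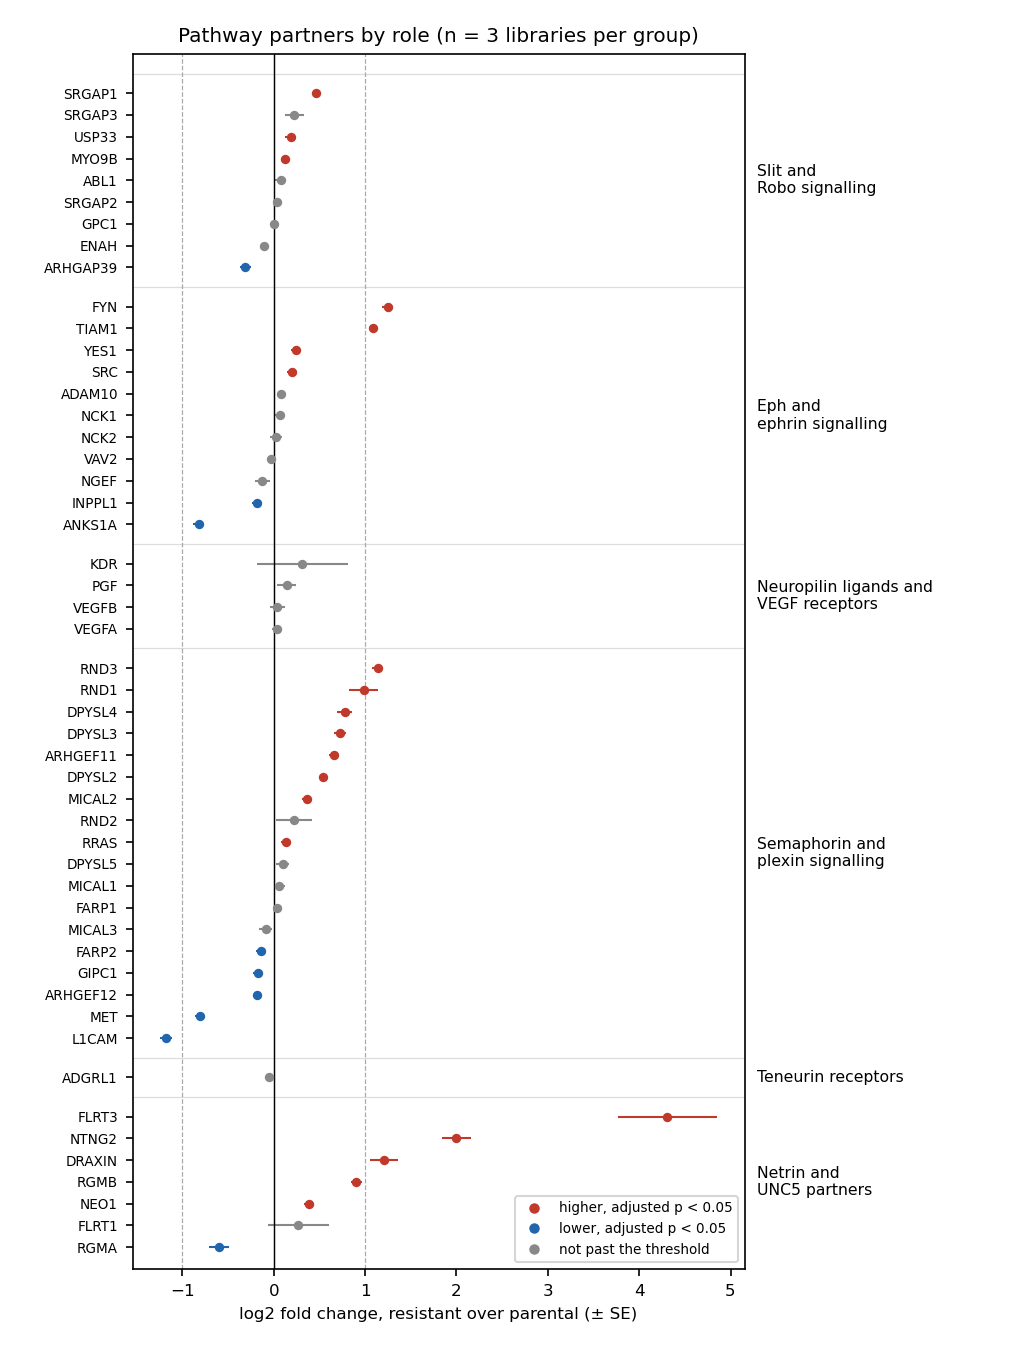
Log2 fold change (resistant over parental, 3 libraries each) of the tested pathway partners of 6 roles, with SE bars and the call at an adjusted p of 0.05 as colour. FLRT3 at 4.31 and L1CAM at -1.18 are the ends of the range.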

How the data were processed

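The members and the partner list were chosen with earlier results of these data known. Per the labels' protocols, total RNA went into libraries of a SMARTER mRNA-Seq kit. Aligner, counting program, annotation and strand handling were not given in the sources used here. Strand is thus unknown, and reads of a gene and of an overlapping antisense gene cannot be told apart. The labels give mouse and the submitters' processing notes GRCm38 and mm10, but 30616 of 31456 rows carry human Ensembl identifiers. The comparisons made here used no mouse reference. The other 840 rows, unnamed gene models, held 0.857% to 0.955% of the counts.

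The authors deposited whole-number read counts per gene without normalization. A second deposited table, with no unit in its header, was taken as FPKM from its values. It served for levels between genes and in alternatives.

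Counts of genes with a total of at least 30 were fitted in edgeR 4.0.16 (R 4.3.3) with TMM factors, the robust quasi-likelihood F test, resistant against parental, two-sided, and Benjamini-Hochberg adjustment over all 18094 genes. The SE is the log2 fold change divided by the square root of F. A permutation test of 3 against 3 libraries cannot go below 0.10 and was not made. The fit was tested on simulated data. Described in full by rule were called members that differed at least 2-fold and the member with the highest FPKM of each family, and of the partners up to 2 per role with the smallest adjusted p. Other members were described more briefly, and some values were chosen for the text after they were seen. The partners' counts over all roles include 1 role that is not reported here by itself. Alternatives were RLE factors, library sizes alone, other filters, DESeq2 1.42.0, a replicate block, limma 3.58.1 on log2(FPKM + 1) and log2(FPKM + 0.1), and leaving out each library.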

Additional observations from a re-analysis of the deposited data

How the results depend on the processing

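Of the 38 called members 33 kept direction and call in every count-based alternative in which they were tested, and 26 on FPKM with either pseudocount. With limma on log2(FPKM + 1) 5 members were lower, 5 were higher by at least 2-fold and 1 lower by at least 2-fold, and 6 partners were lower. With log2(FPKM + 0.1) 5 members and 6 partners were lower. With library sizes alone 34 partners were higher and 9 lower. These values differ from the main counts by over 1.5 times, and the cause was not tested. Leaving out each library gave 23 to 27 members higher, 11 to 12 lower, 8 to 10 higher and 2 lower by at least 2-fold, 19 to 24 partners higher and 13 to 18 lower, and 7667 to 9247 genes past the threshold. Log2 fold changes with the opposite sign were found with library sizes alone for SEMA6B (0.020), EPHB2 (0.052) and EPHB6 (0.0029). With pseudocounts of 1 and 0.1 on FPKM they were found for PLXNA3 (-0.18 and -0.18), PLXNC1 (0.0015 and 0.011), PLXND1 (0.10 and 0.10), EPHB2 (0.019 and 0.020) and ROBO4 (0.10 and 0.27), and for EFNA2 without parental replicate 3 (range -0.22 to 0.010 over the libraries left out). PLXND1 was the called member among these.

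Same-numbered libraries correlated at 0.0927, 0.234 and 0.0714 in their deviations from the group means, and the other pairings at -0.152 to 0.0888. Each resistant library correlated best with the parental library of its number, whereas parental replicate 3 correlated best with resistant replicate 1. Whether the numbers pair the libraries was thus not settled, and the replicate block was kept as an alternative. With the replicate block 28 members were higher and 11 lower, 10 and 2 by at least 2-fold, 22 partners were higher and 19 lower, and 10068 genes passed. EFNA3 then passed (edgeR adjusted p = 0.038). EFNB3, ROBO1, EPHA8 and SEMA4A had few counts, and members under 30 counts in all were not compared at this depth.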
